A study of Mus musculus with 4 samples.

Results

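Fbxw7, Pparg, Foxo1, Zbtb10, Phb, Cyp1b1, Rxra, Apc and Runx1 are 9 genes that have been reported in the literature as targets of microRNA miR-27. They are defined by those reports and not by a threshold on the values below. They were, however, chosen with earlier results of these data known. The question was whether their mRNAs are lower in mammary tumour cells that overexpress the miR-23b/27b/24 cluster. The array carries 22 probes for them among 41174 gene probes, and all 9 were among the 20500 genes tested. 4TO7 is a mouse mammary tumour cell line of strain BALB/cfC3H. Stable 4TO7 cells carried miR-23b/27b/24 in the retroviral vector pMSCV, and their controls carried the empty pMSCV-puro vector. Each group gave 2 arrays, which the study calls transfection replicates. The labels do not say whether these are separately made lines or separate cultures of 1 line, so p-values measure only the spread between these samples. All cells were kept in DMEM with 10% FBS. Every array carried Cy5-labelled total RNA of the cells beside Cy3-labelled Universal Mouse Reference RNA, which pools 11 mouse cell lines, and no array had its dyes swapped. Mature microRNAs were not measured, so the overexpression itself could not be checked on these arrays.

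A microRNA guides an Argonaute complex to messenger RNAs, mostly through pairing of its seed with sites in the 3′ untranslated region, and the paired transcript is degraded or translated less. miR-27a and miR-27b are close relatives from paralogous clusters that also encode miR-23 and miR-24. miR-27 is known for restraining adipocyte differentiation through PPARγ and for targeting tumour suppressors and transcription factors in cancer cells, and in breast cancer cells it has been tied to FOXO1, ZBTB10, CYP1B1 and prohibitin. An expression array reads only the mRNA level, so an effect on translation alone would not appear in these values.

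The mature sequences of the overexpressed cluster and its relatives are shown because the seed defines which transcripts could pair with them. Capitals mark the seed, bases 2 to 8 from the 5′ end, and sequences are from RefSeq on GRCm38.p6. miR-27b-3p lies at chr13:63300760-63300780 on the plus strand and miR-24-3p at chr13:63301251-63301272, and these are the cluster's own products. miR-27a-3p, at chr8:84208727-84208747, has the same seed as miR-27b-3p. miR-23a-3p lies at chr8:84208563-84208583. miR-23b-3p is named only.
mmu-miR-27b-3p: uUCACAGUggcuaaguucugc
mmu-miR-27a-3p: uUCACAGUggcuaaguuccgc
mmu-miR-24-3p: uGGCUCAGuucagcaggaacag
mmu-miR-23a-3p: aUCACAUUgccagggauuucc
The letters ACTGTGA pair with the miR-27 seed, CTGAGCC with the miR-24 seed and AATGTGA with the miR-23a seed. None of the 22 probes of the 9 genes holds any of these letters on its printed strand, a description of the probes and not of the transcripts' untranslated regions, which were not analysed here.

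Values below are log2 ratios of Cy5 over Cy3 after background correction and within-array scaling. A difference is the miR-23b/27b/24 mean minus the vector mean, so a negative one means lower in the cells with the cluster. Each gene is represented by its brightest probe, and a gene was called when its Benjamini-Hochberg adjusted p from limma over all 20500 genes was under 0.05. None of the 9 genes was called lower and none was called higher. Among all genes tested 1929 (9.41%) were called, 951 (4.64%) lower and 978 (4.77%) higher. None of the 9 differed by 1 or more in size, against 8.19% of all genes. Without adjustment 2 of the 9, Foxo1 and Phb, had p under 0.05, both with higher values in miR-23b/27b/24 cells, and 0 had such a p with lower values. Among all genes 14.6% were higher and 13.1% lower by that rule.

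The 9 differences ran from -0.39 to 0.51, with 6 positive and 3 negative. Their median was 0.11, against -0.03 over all genes tested, and 45.8% of all genes were positive. The median size of the difference, whatever its sign, was 0.29 for the 9 genes and 0.23 over all genes. For 4 of the 9 the miR-23b/27b/24 and vector values did not overlap. Of these, 2 were higher (Foxo1, Phb) and 2 lower (Zbtb10, Runx1). Among all genes 59.8% did not overlap, 27.4% higher and 32.3% lower. These counts describe 9 genes and were not tested as a list. The plot of log2 ratios by array shows all 22 probes, and the plot of differences gives each gene's interval.

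**Figure D1:**
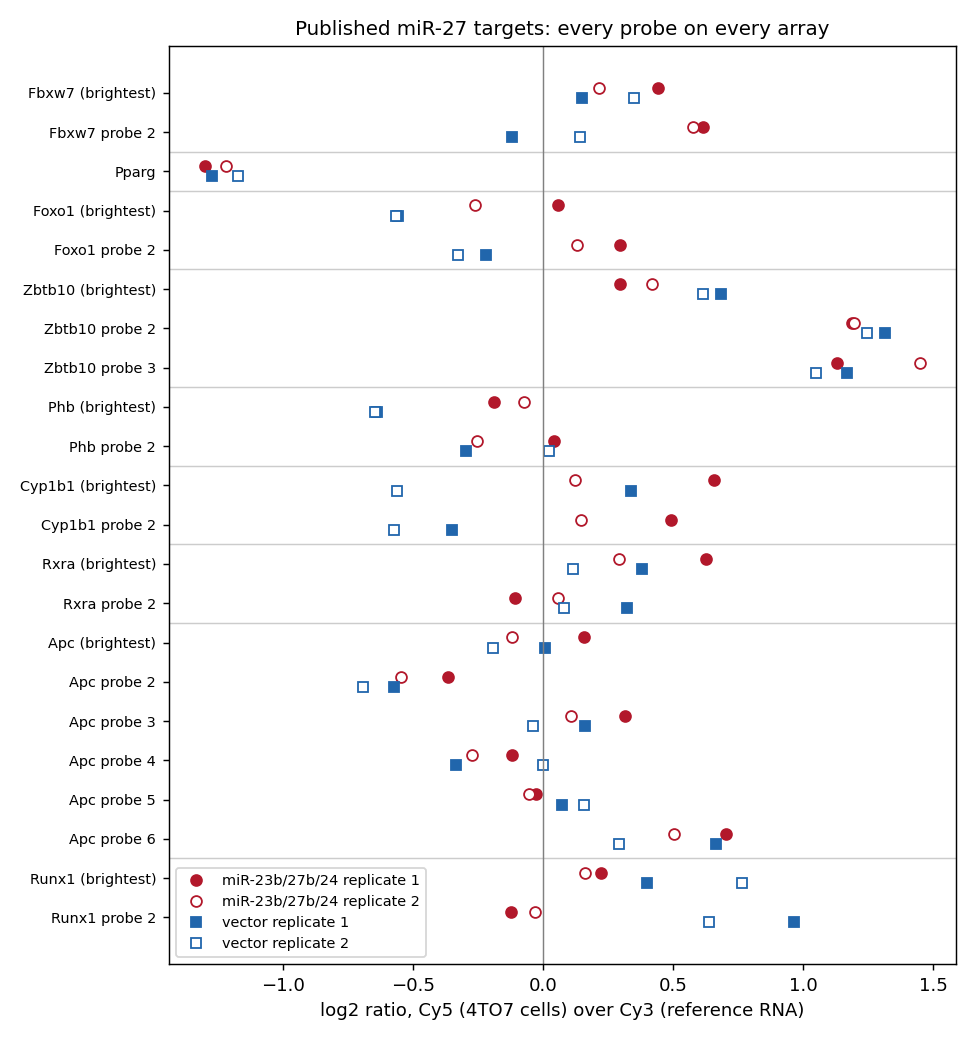
Log2 ratios of Cy5 over Cy3 on each of the 4 arrays for the 22 probes of the 9 genes, with miR-23b/27b/24 arrays and vector arrays marked separately. The second Runx1 probe has the widest separation with lower miR-23b/27b/24 values, at -0.12 and -0.03 against 0.96 and 0.64 on vector arrays.

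**Figure D2:**
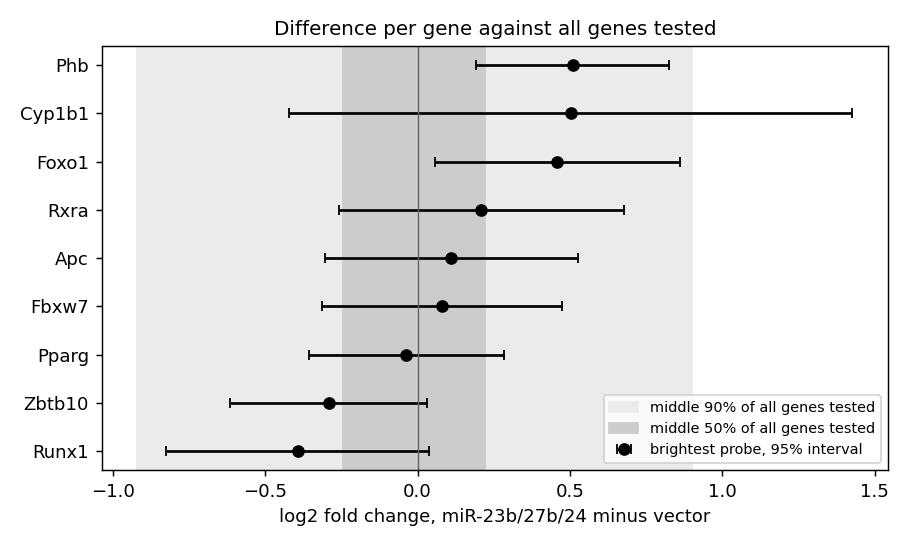
Log2 difference, miR-23b/27b/24 minus vector, for the 9 genes by their brightest probe, with 95% intervals from limma (2 arrays per group). The intervals of Foxo1 and Phb lie above 0, and those of the other 7 genes include 0.

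Bulk RNA was measured, so fewer cells of a type and less RNA per cell cannot be told apart in any of these values. The groups differed broadly. Between 69.8% and 71.6% of gene probes were well above background in Cy5 on miR-23b/27b/24 arrays and between 73.9% and 74.8% on vector arrays. Across the 20500 genes the log2 ratios correlated at 0.952 between miR-23b/27b/24 replicates, at 0.887 between vector replicates and at 0.629 to 0.725 between groups. Of 9 epithelial markers 7 were called lower in miR-23b/27b/24 cells, and their median Cy5 log2 signal was 8.59 to 9.20 on miR-23b/27b/24 arrays and 13.2 to 13.3 on vector arrays. All 9 were on the array, and 8 were well above background on all 4 arrays, Cldn4 being the exception. Cldn4 was not well above background on either miR-23b/27b/24 array, and its value is a bound, at least 10.3-fold lower. It passed the filter through the vector arrays alone, so its call among the 7 rests on dim values. Krt8 (difference 0.30, groups overlapping) and Krt18 (-1.40, limma adjusted p = 0.065) were not called. The median signal of mesenchymal markers was 12.3 on miR-23b/27b/24 arrays and 12.1 to 12.2 on vector arrays, although Twist1 was called 7.76-fold lower and Acta2 1.93-fold higher, with the other 3 Acta2 probes of opposite sign. That of fibroblast markers was 11.3 to 11.4 on miR-23b/27b/24 arrays and 10.4 to 10.7 on vector arrays. The log2 differences of these 5 markers had a median of -0.003, with 2 positive, 3 negative and 0 called. The leukocyte, endothelial and adipocyte lists had median signals between 6.59 and 7.05 on all arrays, and the leukocyte marker Itgam was not well above background on any. Cd68, the macrophage marker in the leukocyte list, was called 3.21-fold lower. The part of this epithelial difference in the values of the 9 genes was not tested.

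Runx1, a DNA-binding transcription factor of haematopoiesis that is also expressed in mammary epithelium, had the most negative value of the 9. Its brightest probe is 60 bases long and is shown because the 2 Runx1 probes gave different calls. The probes printed for Runx1, Foxo1 and Fbxw7 are taken as coding sequence from general knowledge of these genes, with no annotation of coding regions used.
Runx1 probe: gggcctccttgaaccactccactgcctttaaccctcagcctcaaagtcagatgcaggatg
The probe is placed by the array's annotation at chr16:92667924-92698376 on the minus strand (mm7), a span that includes an intron. Its log2 ratios were 0.22 and 0.16 on miR-23b/27b/24 arrays and 0.40 and 0.77 on vector arrays. Both miR-23b/27b/24 arrays lay below both vector arrays. The difference was -0.39 ± 0.17 (SE, n = 2 arrays per group), 1.31-fold lower, with a 95% interval of -0.82 to 0.04, and it was not called (limma adjusted p = 0.214). The interval of this probe reaches a 1.77-fold fall.

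The other Runx1 probe, at chr16:92658334-92658393 on the minus strand (mm7), had log2 ratios of -0.12 and -0.03 on miR-23b/27b/24 arrays and 0.96 and 0.64 on vector arrays. The groups were well apart here. In a fit of each of 30038 probes on its own this probe fell, at -0.88 ± 0.16 (SE, n = 2 arrays per group) or 1.84-fold lower, with a 95% interval of -1.29 to -0.47 (limma adjusted p = 0.0366 over all probes). In that fit 9.85% of all probes were called, 4.44% lower and 5.41% higher, and this was the only call among the 22 probes, with 0 called higher. The Cy5 log2 signal of the probe was 8.42 and 8.52 on miR-23b/27b/24 arrays and averaged 9.38 on vector arrays, while the reference channel differed by -0.03. The call was absent in 4 of 15 other settings. It was lost with every local background as measured (-0.56, limma adjusted p = 0.0942) and with median centring (-0.81, adjusted p = 0.0539), and also without miR-23b/27b/24 replicate 1 (-0.83, adjusted p = 0.244) or replicate 2 (-0.92, adjusted p = 0.169). Runx1 as a gene was called lower with the mean of its 2 probes (-0.63, limma adjusted p = 0.0344) and without vector replicate 1 (-0.57, limma adjusted p = 0.0438). Without vector replicate 2 its difference was -0.21 (limma adjusted p = 0.391).

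Foxo1 is a forkhead transcription factor that is held out of the nucleus by Akt signalling and drives genes of cell-cycle arrest and glucose metabolism. Its brightest probe, at chr3:52472787-52472846 on the plus strand (mm7), is shown because both Foxo1 probes gave higher values in miR-23b/27b/24 cells.
Foxo1 probe: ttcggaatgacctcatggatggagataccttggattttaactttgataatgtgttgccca
The log2 ratios were 0.06 and -0.26 on miR-23b/27b/24 arrays and -0.55 and -0.56 on vector arrays, which put both miR-23b/27b/24 arrays above both vector arrays. The difference was 0.46 ± 0.15 (SE, n = 2 arrays per group) with a 95% interval of 0.06 to 0.86, 1.37-fold higher, and it was not called (limma adjusted p = 0.142). The second probe, at chr3:52475893-52475952, had 0.30 and 0.13 on miR-23b/27b/24 arrays and -0.22 and -0.32 on vector arrays. That probe differed by 0.49 ± 0.13 (SE) and was not called either (limma adjusted p = 0.0879 over all probes). Neither interval includes a lower Foxo1 mRNA level.

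Zbtb10, a zinc finger protein that represses genes driven by Sp transcription factors, has 3 probes. The brightest, at chr3:9291163-9291222 (mm7), had log2 ratios of 0.30 and 0.42 on miR-23b/27b/24 arrays and 0.68 and 0.62 on vector arrays. Its groups did not overlap, and the difference was -0.29 ± 0.12 (SE), 1.22-fold lower, with a 95% interval of -0.61 to 0.03 (limma adjusted p = 0.217). The second probe had 1.19 and 1.20 on miR-23b/27b/24 arrays and 1.32 and 1.25 on vector arrays. That is a smaller gap in the same direction (-0.09, limma adjusted p = 0.697 over all probes). The third probe had 1.13 and 1.45 on miR-23b/27b/24 arrays and 1.17 and 1.05 on vector arrays, so its groups overlapped and its difference was positive (0.18, limma adjusted p = 0.528 over all probes).

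Phb, prohibitin, is a scaffold protein of the mitochondrial inner membrane. Its brightest probe, at chr11:95788926-95788985 (mm7), had log2 ratios of -0.19 and -0.07 on miR-23b/27b/24 arrays and -0.64 on both vector arrays. It had the highest value of the 9 genes at 0.51 ± 0.12 (SE), 1.42-fold higher, with a 95% interval of 0.19 to 0.83, and was not called (limma adjusted p = 0.0706). The second Phb probe, at chr11:95789594-95789653, had 0.04 and -0.25 on miR-23b/27b/24 arrays and -0.30 and 0.02 on vector arrays. Those groups overlapped, and the difference was 0.03 (95% interval -0.44 to 0.49, limma adjusted p = 0.937 over all probes). The 2 probes thus gave different sizes for the same gene.

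**Figure D3:**
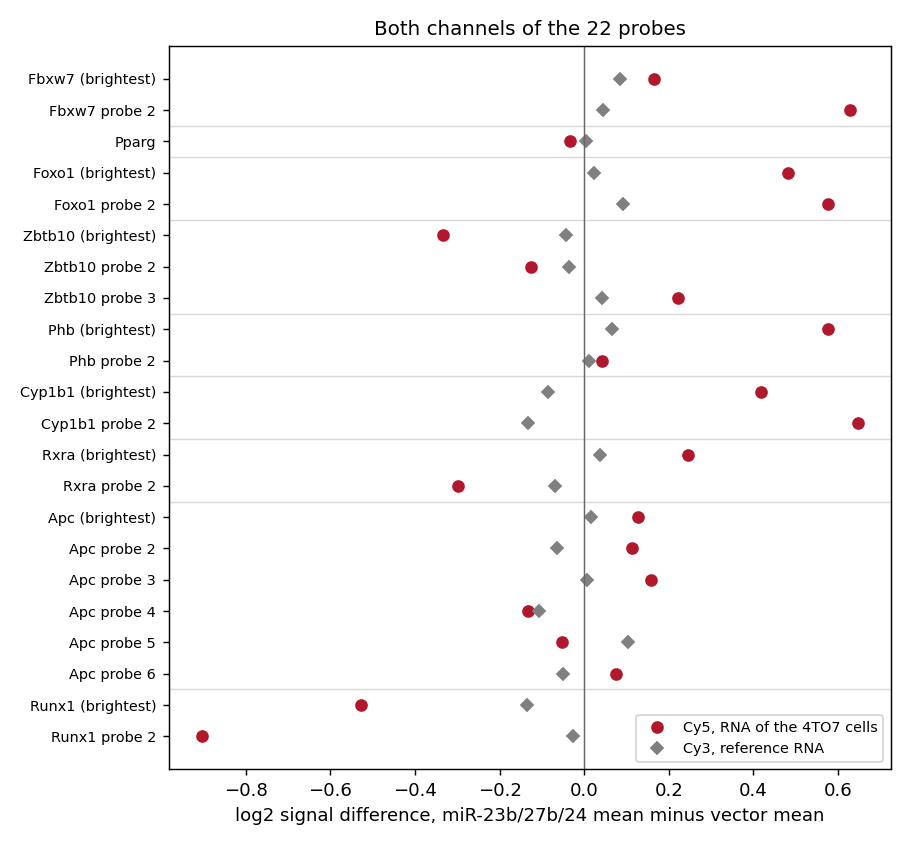
Difference in log2 signal, miR-23b/27b/24 minus vector, in Cy5 (cell RNA) and in Cy3 (reference RNA) for the 22 probes. Cy5 differences run from -0.90 to 0.65, the upper end being the second Cyp1b1 probe, which was not well above background on vector arrays, and Cy3 differences from -0.14 to 0.10.

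Fbxw7 is the substrate-recognition subunit of an SCF ubiquitin ligase that marks cyclin E, MYC and NOTCH for degradation. Its second probe, at chr3:85083691-85083750 on the plus strand (mm7), is shown because its value differs from the brightest probe of the gene.
Fbxw7 probe: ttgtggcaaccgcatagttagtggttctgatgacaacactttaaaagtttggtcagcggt
This probe had log2 ratios of 0.61 and 0.58 on miR-23b/27b/24 arrays and -0.12 and 0.14 on vector arrays. Its groups did not overlap, and the difference was 0.58 with a 95% interval of 0.21 to 0.95 (limma adjusted p = 0.0711 over all probes). The brightest probe, at chr3:85090375-85090434, had 0.44 and 0.22 on miR-23b/27b/24 arrays and 0.15 and 0.35 on vector arrays. Here the groups overlapped, with a difference of 0.08 ± 0.15 (SE) and a 95% interval of -0.31 to 0.47 (limma adjusted p = 0.788). The interval of the brightest probe reaches a 1.24-fold fall at most.

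Pparg encodes the nuclear receptor that drives adipocyte differentiation, and Rxra encodes the retinoid X receptor with which it pairs on DNA. Pparg has 1 probe, at chr6:115515909-115515968 (mm7), printed in 10 spots. Its log2 ratios were -1.30 and -1.22 on miR-23b/27b/24 arrays and -1.27 and -1.17 on vector arrays. The groups overlapped, the difference was -0.04 ± 0.12 (SE), and the 95% interval of -0.36 to 0.28 reaches a 1.28-fold fall (limma adjusted p = 0.885). With every local background as measured the difference was -0.47 (limma adjusted p = 0.260), outside that interval. The brightest Rxra probe, at chr2:27770202-27770261 (mm7), had 0.63 and 0.29 on miR-23b/27b/24 arrays and 0.38 and 0.12 on vector arrays. Those also overlapped (difference 0.21 ± 0.18 SE, 95% interval -0.26 to 0.68, limma adjusted p = 0.520). The other Rxra probe ran the other way, with -0.11 and 0.06 on miR-23b/27b/24 arrays and 0.32 and 0.08 on vector arrays. It was lower without overlap by a difference of -0.23 (limma adjusted p = 0.390 over all probes).

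Cyp1b1, a cytochrome P450 that hydroxylates oestradiol and is induced through the aryl hydrocarbon receptor, was the least precise of the 9. Its brightest probe, at chr17:78002920-78002979 on the minus strand (mm7), had log2 ratios of 0.66 and 0.13 on miR-23b/27b/24 arrays and 0.34 and -0.56 on vector arrays. The vector replicates lay 0.90 apart, more than the difference of 0.50 ± 0.36 (SE), and the 95% interval was -0.42 to 1.43 (limma adjusted p = 0.431). Without vector replicate 1 the difference was 0.95, and without vector replicate 2 it was 0.05. The second probe, at chr17:77997291-77997350, had 0.49 and 0.15 on miR-23b/27b/24 arrays and -0.35 and -0.57 on vector arrays. It was not well above background on either vector array, so its ratio there is only a bound. Set against the lowest signal that passes as well above background, it was at least 1.54-fold higher in miR-23b/27b/24 cells. The probe passed the filter through the miR-23b/27b/24 arrays alone. Its limma adjusted p of 0.0578 over all probes (not called) belongs to the log2 ratio difference of 0.78. That difference rests on the dim vector values, so the p is not a test of the bound.

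Apc, the scaffold of the complex that marks β-catenin for destruction, has 6 probes. The brightest, at chr18:34693971-34694030 (mm7), had log2 ratios of 0.16 and -0.12 on miR-23b/27b/24 arrays and 0.01 and -0.19 on vector arrays. The groups overlapped, and the difference was 0.11 ± 0.16 (SE) with a 95% interval of -0.30 to 0.53 (limma adjusted p = 0.711). Over the 6 probes the differences ran from -0.16 to 0.18. One probe was higher without overlap, at -0.36 and -0.55 on miR-23b/27b/24 arrays against -0.57 and -0.69 on vector arrays, and 1 was lower without overlap, at -0.03 and -0.05 on miR-23b/27b/24 arrays against 0.07 and 0.16 on vector arrays. None of the 6 was called.

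Of the 22 probes 21 were measured above background in Cy5 in both groups, the exception being the second Cyp1b1 probe. Of those 21 differences 13 were positive and 8 negative. The arrays did not overlap for 11 of the 21, 5 higher and 6 lower, against 60% of all probes kept. The probes of Fbxw7, Foxo1, Phb, Cyp1b1 (the second only a bound) and Runx1 shared a sign within each gene, while those of Zbtb10, Rxra and Apc did not. None of the 22 was saturated. The 95% intervals of the brightest probes alone reach a fall of 1.77-fold for Runx1, 1.53-fold for Zbtb10, 1.34-fold for Cyp1b1, and 1.28-fold or less for Pparg, Fbxw7, Apc and Rxra. They hold no fall for Foxo1 and Phb. Other probes of the same genes reach further down, to -1.29 in log2 for Runx1, -0.62 for Rxra, -0.47 for Apc and -0.44 for Phb. The limits given for the brightest probes are therefore limits of single probes under the reported processing and not of the genes.

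**Figure D4:**
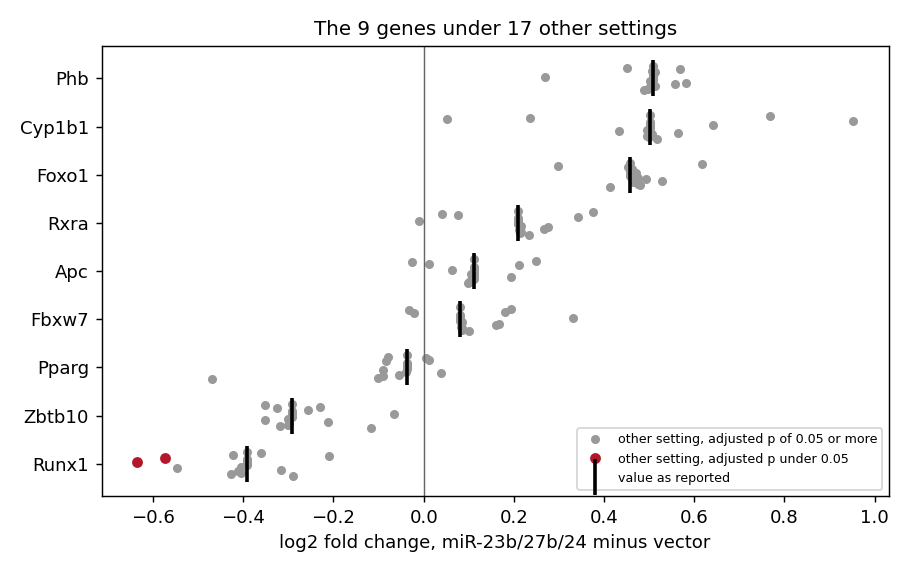
Log2 difference, miR-23b/27b/24 minus vector, of each of the 9 genes under the reported processing and 17 other settings. Some settings change only the test or the genes tested and repeat the reported difference. Foxo1, Phb and Cyp1b1 stay above 0 and Zbtb10 and Runx1 below 0 in all of them, while Fbxw7, Pparg, Rxra and Apc cross 0.

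Family relatives of the 9 genes gave a comparison with transcripts of similar function. Of 16 measured relatives 2 were called lower and 0 higher, and their median was -0.12, against 4.64% called lower, 4.77% called higher and a median of -0.03 over all genes tested. The same shares stand behind the counts of the lists that follow, none of which was tested as a list. Runx2, the RUNX factor of bone formation, had log2 ratios of -0.43 and -0.40 on miR-23b/27b/24 arrays and 0.28 and 0.21 on vector arrays. It fell by 0.66 ± 0.12 on the log2 scale (SE, limma adjusted p = 0.0394), 1.58-fold lower, and its other 2 probes had the same sign. The Runx2 call was lost without miR-23b/27b/24 replicate 1 (-0.64, limma adjusted p = 0.276) or replicate 2 (-0.68, limma adjusted p = 0.207). Fbxw4, another F-box protein with WD repeats, fell by 1.09 ± 0.20 on the log2 scale (SE, limma adjusted p = 0.0406). Runx3 differed by -0.30 (adjusted p = 0.194), with its other probe positive. The retinoid receptors Rxrb and Rxrg differed by -0.72 (adjusted p = 0.124) and -0.13. Foxo3, Foxo4 and Foxo6 lay between -0.09 and -0.06, Phb2 at -0.10, Ppard at -0.18 and Apc2 at -0.17, none of them called. Fbxw2, Fbxw5, Fbxw8, Fbxw11 and Btrc lay between -0.41 and 0.22 and were not called. Ppara, Cyp1a1 and Cyp1a2 did not pass the filter on dim probes.

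Of 28 other measured genes reported as miR-27 targets 3 were called higher and 3 lower, with a median of 0.00. The largest falls were in Mmp13, the collagenase matrix metalloproteinase 13, at 19.7-fold lower, and St14, the membrane serine protease matriptase, at 16.9-fold lower (limma adjusted p = 0.0134 and 0.00178). Mmp13 had -1.09 and -1.15 on miR-23b/27b/24 arrays and 3.88 and 2.47 on vector arrays, and its fall was 12.0-fold without vector replicate 1 and 32.1-fold without vector replicate 2. The largest rises were in Notch1, a receptor of cell-to-cell signalling, at 4.66-fold, and Abca1, a cholesterol exporter, at 3.93-fold (limma adjusted p = 0.0095 and 0.0088). Dll4, a Notch ligand, was 2.26-fold lower. St14 is an epithelial gene, and 7 of the 9 epithelial markers above were also called lower, the call of Cldn4 resting on dim values. The part of that difference in the St14 value was not tested.

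Genes known to act with or below the 9 were counted in the same way. Of 20 partners and substrates of Fbxw7, 3 were called higher and 2 lower (median 0.22). Cyclin E1 (Ccne1) was 4.01-fold higher, cyclin E2 (Ccne2) 2.92-fold higher and Notch1 higher as above, while the transcription factors Myc and Klf5 were called lower. Myc was 3.01-fold lower and Klf5 3.14-fold lower by its brightest probe, with its other probe of opposite sign. Fbxw7 marks proteins for degradation and protein was not measured, so these mRNA levels do not read its action. Of 22 FOXO1 targets measured, the cell-cycle inhibitor Cdkn1a was called higher (2.37-fold). Txnip, which binds and inhibits thioredoxin, was called lower (5.87-fold). The median of these 22 was -0.24, with 22.7% positive, against 45.8% of all genes. The shares of positive differences were lower still for the family relatives (18.8%) and for the RUNX partners and targets below (21.4%). In the other lists of this kind they ran from 33.3% to 65%. Cidec of the PPAR and RXR targets and Mycn of the Fbxw7 list also passed the filter through the vector arrays alone. Of 21 PPAR and RXR targets Abca1 alone was called, and the median was -0.01. Of 12 Sp factors and their targets cyclin D1 (Ccnd1) alone was called, 3.58-fold higher, with a median of 0.07.

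Of 14 RUNX partners and targets 3 were called lower and 0 higher, with a median of -0.15. The called genes were Mmp13, the gelatinase Mmp9 (4.93-fold lower) and the cytokine Csf2 (4.16-fold lower). The Csf2 probe was well above background on 1 of the 2 miR-23b/27b/24 arrays. In this list 3 genes had positive differences. The largest was Spp1, 5.47-fold higher without overlap and not called (limma adjusted p = 0.0723). Of 16 Wnt pathway genes Ccnd1 was called higher, and the median was -0.02. Rnf43 (3.79-fold), a ubiquitin ligase that lowers Wnt receptors, Myc and Dvl1 (1.85-fold) were called lower. The list of the aryl hydrocarbon receptor pathway also holds Esr1 and Sp1. Of its 9 measured genes 2, Esr1 and Tiparp, were called lower and 0 higher, with a median of -0.49. Esr1, the oestrogen receptor alpha, was 5.62-fold lower, with its probe well above background on 1 of 2 miR-23b/27b/24 arrays. Tiparp, a repressor of the aryl hydrocarbon receptor, was 1.55-fold lower. None of 13 genes of the prohibitin complex and mitochondrial quality control was called by limma (median 0.07). At an unadjusted limma p under 0.05, 3 of those 13 were higher and 0 lower, against 14.6% higher and 13.1% lower among all genes. The smallest p belonged to Oma1 (0.58, limma adjusted p = 0.0692) and Stoml2 (0.57, limma adjusted p = 0.0903). The lists hold 21 distinct called genes outside the marker lists, relatives included. Without miR-23b/27b/24 replicate 1, 3 of them remained called, and without replicate 2 likewise 3. With every background as measured 10 remained, and none changed sign in any setting.

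**Figure D5:**
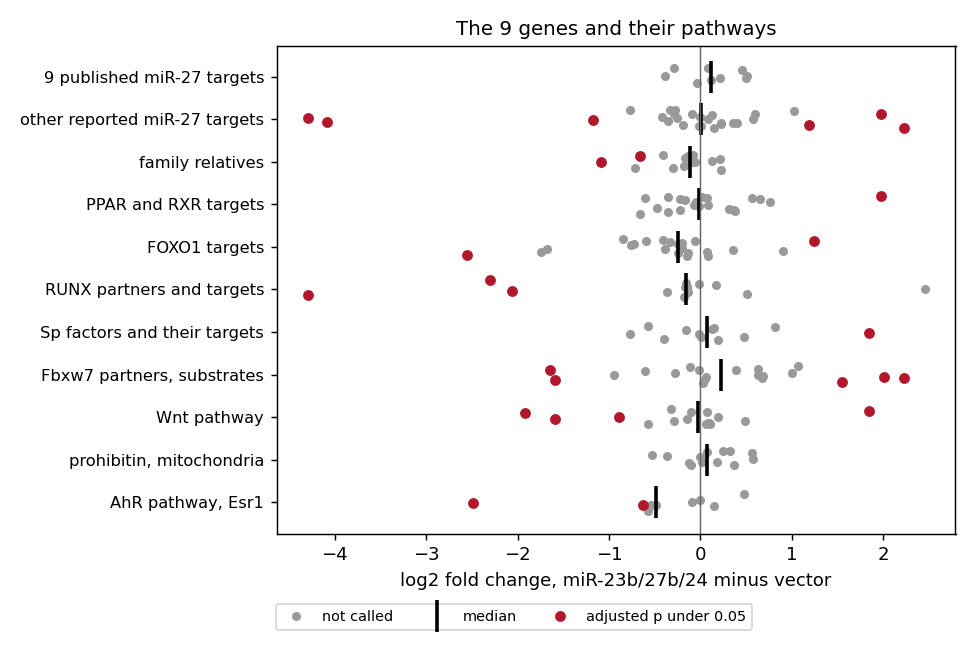
Log2 difference, miR-23b/27b/24 minus vector, of the 9 genes and of each gene in the 10 lists, with called genes marked and a bar at each list's median. The 9 genes lie between -0.39 and 0.51, none called, while the lists hold called genes from -4.30 to 2.22.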

How the data were processed

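The deposited scanner files of the authors hold, per the file headers, each spot's intensity as a mean signal with a local median background, and a log10 ratio of processed Cy5 over Cy3 from Agilent Feature Extraction 9.5.3.1 (also in the submitters' processing notes). The authors' deposited value table holds log2 ratios in the direction Cy5 over Cy3. After turning that ratio to log2 and subtracting each probe's 4-array median, 87.3% to 87.8% of values matched it within 0.001, and its column medians were 0.0221 and -0.0149 for miR-23b/27b/24 and 0.0133 and -0.0172 for vector. There was no dye swap, and all arrays were on 1 slide, so no slide block was possible.

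In R 4.3.3 with limma 3.58.1, local backgrounds marked as outliers (1782 to 1976 spots per array in Cy5) were replaced by the array's median, a choice first made on these data after results had been seen. Normexp (offset 50) and loess with control spots at weight 0 followed, and spots of a probe were averaged without outlier spots. Of 41174 gene probes 22951 were named by accession, 6659 by symbol and 3109 by synonym in RefSeq's GRCm38.p6 table, and 8455 kept the file's name. A probe was kept if Feature Extraction marked its Cy5 signal as well above background on both arrays of either group (30038 probes), and the brightest probe stood for a gene (20500 genes). The test was lmFit with eBayes, on 2 residual degrees of freedom and a prior of 2.83. For a bound, Cy5 log2 signals were scaled by loess and then Aquantile. The brighter group's mean was set against the dim probe's own signal or the array's lowest signal well above background, whichever was higher, which is open to dye bias. The steps were tested on simulated data. With 2 arrays per group the smallest two-sided exact permutation p is 0.333, and the number of arrays limits the precision.

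The members, gene lists and markers were chosen with earlier results of these data known. Named were all 9 genes with every probe, their relatives, up to 4 called genes with the largest difference per list (2 with the smallest p where none was called), and the 3 genes nearest in pattern to the 2 members with the largest differences. Dll4 and Ccne2 were named after their values were seen, and some list genes are not reported here. Alternatives changed the background step, the scaling, the filter, the choice of probe and the moderation, or used the authors' table, leaving out each array and a block for the replicate number.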

Additional observations from a re-analysis of the deposited data

How the results depend on the processing

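Under 17 other settings the 9 genes gave 153 values, of which 144 kept their direction and their side of the threshold, 2 came past it and 7 turned sign. These values are not independent. The settings of the filter, the moderation, the block and each probe on its own left the differences as reported. Their directions could therefore not turn. The Feature Extraction log ratio and the authors' table gave nearly the same values as each other. Of the genes tested, 1929 were called as reported, 635 with every background as measured, 1263 with median centring and 2960 probes with each probe on its own. Leaving out 1 array gave 214 to 4584 called genes. The count of the 9 called lower was 0 as reported and 1 (Runx1) with the mean of a gene's probes and with each probe on its own, and 0 to 1 when 1 array was left out. The count called higher was 0 in all of them. The median of the 9 was 0.11 as reported and 0.01 to 0.25 when 1 array was left out. Pparg moved furthest with every background as measured, to -0.47. It turned to 0.040 with median centring, 0.012 without vector replicate 2 and 0.0057 without miR-23b/27b/24 replicate 1, and Rxra turned to -0.0096 with the mean of a gene's probes. Fbxw7 turned to -0.021 without vector replicate 1 and -0.033 without miR-23b/27b/24 replicate 1, and Apc to -0.026 without miR-23b/27b/24 replicate 1. With 1 array left out, Fbxw7 ran from -0.033 to 0.19, Pparg from -0.085 to 0.012 and Apc from -0.026 to 0.25. The cause was not tested. With the replicate number as a block 1740 genes were called, the median of the 9 was 0.11 and 0 were called in each direction. Over the genes tested, deviations of same-numbered arrays from their group means correlated at 0.0465, so the number was not taken as a pairing. With 2 arrays per group the 2 pairs mirror each other, so this value cannot decide a pairing for a given gene. With the block the limma adjusted p of Cyp1b1 was 0.150, against 0.431 as reported. The settings for the second Runx1 probe alone were added after its value had been seen. Where 1 array was left out, the lone array was assumed to vary like the other group. Only 2 arrays per group and signal over background limit these values.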

Other observations

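The genes whose 4 log2 ratios, centred on their mean, lay nearest to those of Phb were Pole4 (distance 0.0221), Slc35d1 (0.0222) and Wdr6 (0.0342), among 14457 genes with Cy5 and Cy3 both well above background on every array. For Cyp1b1 they were Gen1 (0.0795), Ehd2 (0.138) and Arhgap6 (0.140). With 4 arrays such nearness is a description.

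The brightest probes of 192 genes (0.937% of 20500) held ACTGTGA, the letters that pair with the miR-27 seed, on the printed probe strand. Of these genes 7 were called higher and 7 lower, 3.65% each, against 4.77% and 4.64% of all genes, and their median difference was -0.05, against -0.03 for genes whose probe lacks the letters. CTGAGCC, for miR-24, was in the probes of 113 genes, with 7 called higher and 2 lower. AATGTGA, for miR-23a, was in the probes of 179 genes, with 8 called higher and 8 lower. A probe covers 60 bases of a transcript, so these counts say nothing of sites elsewhere in it.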
